A study of Homo sapiens with 6 samples.

Results

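The genes described here are the Wnt ligands, their receptors and the main modulators of the pathway in Y79 cells, an established human retinoblastoma line. They were selected from the count table by symbol: every protein-coding gene named as a WNT ligand, a frizzled receptor (FZD), a Dickkopf protein (DKK1 to DKK4), a secreted frizzled-related protein (SFRP), LRP5 or LRP6, AXIN1 or AXIN2, a TCF7 family factor, and LEF1, CTNNB1, APC, RNF43 and ZNRF3. The rule found 49 genes among the 63140 gene IDs of the table, of which 19 are ligands, 10 are frizzled receptors and 8 are secreted inhibitors. Y79 cells labelled as wild type were kept in complete medium (control, 3 libraries) or in the same medium with 2 U/mL of rhArg, recombinant human arginase, which breaks down the arginine in the medium (rhArg, 3 libraries). Treatment lasted 72 h, and both groups were grown in RPMI medium with fetal bovine serum. All values are from bulk RNA of a single line, and neither the labels nor the methods say whether the 3 libraries of a group were separate cultures, so a p-value here reflects the scatter among these libraries, which may be technical.

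Wnt proteins are lipid-modified secreted ligands. In the branch of the pathway that acts through beta-catenin, a ligand brings a frizzled receptor together with LRP5 or LRP6, and this stops the destruction complex, built on AXIN and APC, from marking beta-catenin (encoded by CTNNB1) for breakdown. Beta-catenin then enters the nucleus and joins TCF/LEF factors on DNA, among which TCF7L1 is known mainly as a repressor. SFRP proteins and DKK1 hold the ligand or the co-receptor back outside the cell, and the membrane ubiquitin ligases RNF43 and ZNRF3 remove frizzled receptors from the surface. In the developing eye, Wnt signalling takes part in patterning the optic cup and its margin, and FZD4 serves retinal vessels as the receptor of Norrin.

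The promoters of 4 members that the results below turn on are printed first, because these genes gave the clearest rise among the ligands (WNT9A), the largest fall among the inhibitors (SFRP5) and the joint rise of the TCF7 factors (TCF7L1 and TCF7L2). Each sequence is the 250 bases before the gene's start, 5′ to 3′ on the gene's own strand, from RefSeq on GRCh38.p14, and capitals mark matches to the GC-box GGGCGG on either strand, where adjoining matches run together.
WNT9A, chr1:227947933-227948182, minus strand: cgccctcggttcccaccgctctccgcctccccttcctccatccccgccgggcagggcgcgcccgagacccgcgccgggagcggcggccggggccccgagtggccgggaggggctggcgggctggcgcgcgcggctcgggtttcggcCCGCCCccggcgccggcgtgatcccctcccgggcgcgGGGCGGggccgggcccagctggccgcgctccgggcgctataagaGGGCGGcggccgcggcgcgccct
SFRP5, chr10:97772000-97772249, minus strand: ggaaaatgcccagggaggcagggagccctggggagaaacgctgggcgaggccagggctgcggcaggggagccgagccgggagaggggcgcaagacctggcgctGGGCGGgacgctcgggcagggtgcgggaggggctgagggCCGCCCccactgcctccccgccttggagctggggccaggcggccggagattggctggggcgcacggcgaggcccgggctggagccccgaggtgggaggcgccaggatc
TCF7L1, chr2:85133142-85133391, plus strand: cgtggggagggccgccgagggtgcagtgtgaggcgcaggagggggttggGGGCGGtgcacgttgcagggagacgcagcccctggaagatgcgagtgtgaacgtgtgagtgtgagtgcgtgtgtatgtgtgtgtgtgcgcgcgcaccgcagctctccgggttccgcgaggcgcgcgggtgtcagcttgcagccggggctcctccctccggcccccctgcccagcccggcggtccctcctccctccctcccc
TCF7L2, chr10:112949997-112950246, plus strand: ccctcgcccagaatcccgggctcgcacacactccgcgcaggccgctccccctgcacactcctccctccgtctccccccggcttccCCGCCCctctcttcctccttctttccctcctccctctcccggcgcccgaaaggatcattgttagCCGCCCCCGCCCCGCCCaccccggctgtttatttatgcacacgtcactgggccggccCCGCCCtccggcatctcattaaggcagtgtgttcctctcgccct
WNT9A had 3 separate GC-box matches, SFRP5 had 2, TCF7L1 had 1 and the printed window of TCF7L2 had 5. Later windows of TCF7L2, at chr10:113126383-113126632 and chr10:113129021-113129270, are not printed and had no match. The GC-box was present in 31 of the 42 windows found for 34 members, against 42.6% of all 35116 windows of the same length in the table, and it was chosen after the results of the other motifs, all searched on both strands, had been seen. The bases G and C made up 84.4% of the WNT9A window, 76.8% of that of SFRP5, 72% of that of TCF7L1 and 68% of the printed window of TCF7L2. The later TCF7L2 windows had 42.4% and 48.4%, while the median window of the table had 58%. The TCF/LEF motif CTTTGAT was in 0 of the 42 member windows and in 2.26% of all windows, and the ATF4 composite motif TGATGCAA was in 0 member windows and in 0.772% of all windows. The AP-1 motif TGACTCA (4.2% of all windows) was matched only in RNF43, and the E-box CACGTG (6.34%) only in APC. These matches describe letters in short windows and not binding.

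The libraries held between 12580622 and 13747351 counts, and the members took between 0.174% and 0.213% of them. Replicates spread more in the control group: over the 24 members that passed the count filter in both groups, the median coefficient of variation was 14.1% in the controls and 5.57% under rhArg, and it was larger in the controls for 20 of them. Control replicates 1 and 2 stood farthest apart within a group (chi-square per degree of freedom of 18.4, against 3.94 to 5.21 between rhArg replicates). Levels are given as CPM after TMM scaling, which is a gene's counts relative to the scaled total of its library. Levels of different members were compared only per kilobase of exon, while the marker lists were summed in CPM without regard to length. Of the 10 photoreceptor lineage markers listed for Y79, each had a mean level over 1 CPM, and their summed level lay between 3115 and 3374 CPM in the controls and between 2505 and 2539 CPM under rhArg. OTX2 was the largest part of this sum, with a mean of 1763 CPM in the controls and 1318 CPM under rhArg. The 10 markers did not all move alike. At an adjusted p under 0.05 by edgeR, 6 were lower (60%), 2 were higher (20%, CRX and ISL2) and 2 were not called. Over all genes tested, 30.9% were lower and 30.7% higher. Markers of other cells stayed far below the photoreceptor sum, with 3 of 5 glial, 2 of 5 pigment epithelium, 1 of 4 endothelial and 1 of 5 fibroblast genes at 0 in every library. The summed glial list lay between 1.04 and 1.39 CPM in the controls and between 12.5 and 16.3 CPM under rhArg, nearly all from SLC1A3, and the pigment epithelium list between 0.409 and 0.829 CPM and between 8.25 and 10.1 CPM, mostly from BEST1. The endothelial list was between 0.226 and 0.572 CPM in the controls and between 0.757 and 1.39 CPM under rhArg, and the fibroblast list between 4.30 and 5.57 CPM and between 3.44 and 3.71 CPM. The part of these shifts in the results below was not tested.

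Under rhArg, ligand, frizzled and co-receptor genes were called in both directions. The 3 called TCF7 family genes and the 2 called destruction complex genes (AXIN1 and AXIN2) were higher. The 2 called secreted inhibitor genes (SFRP1 and SFRP5) and the single genes CTNNB1 and ZNRF3 were lower. Of the 49 members, 27 passed the filter on low counts and were tested with edgeR's quasi-likelihood test, with 3 libraries per group. At an adjusted p under 0.05, 11 members were higher and 9 lower. These are 40.7% and 33.3% of the tested members, while 30.7% of all 15221 genes tested were higher and 30.9% were lower. With an absolute log2 fold change over 1 in addition (DEGs), 2 members were higher (7.41%) and 3 were lower (11.1%), and over all genes the shares were 12.4% and 11%. The DEGs were the ligand genes WNT9A and WNT5B upward and WNT5A downward, and the inhibitor genes SFRP1 and SFRP5 downward. The 27 members had a median log2 fold change of -0.03, and all genes tested had -0.005. WNT5B passed the filter only through its rhArg libraries, and WNT5A and WNT11 only through the controls, so a difference was built into their selection. A lower level in bulk RNA can come from fewer cells that express a gene or from less RNA per cell, which cannot be told apart here.

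**Figure D1:**
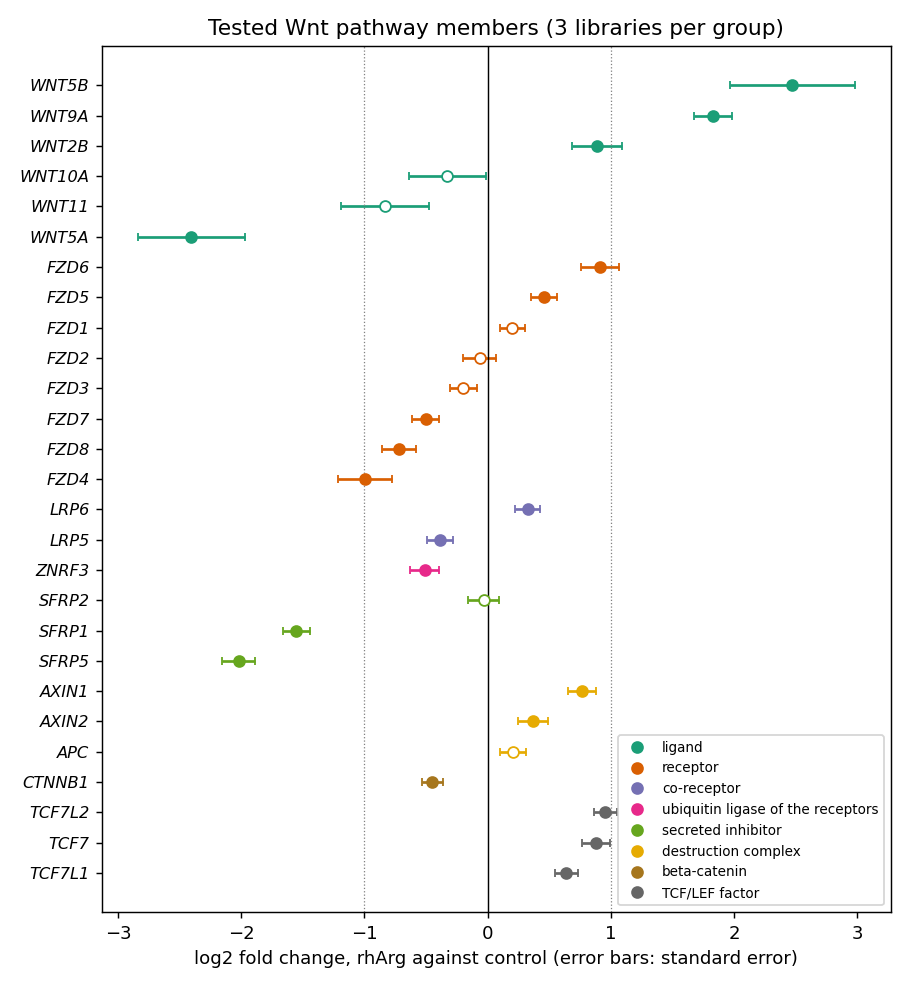
Log2 fold change under rhArg against control for the 27 tested members, coloured by role, with the standard error (SE) from edgeR as the error bar. Filled points passed an adjusted p under 0.05, open points did not, and dotted lines mark a log2 fold change of 1 in either direction. The 3 TCF7 family genes all lie to the right of 0, SFRP1 and SFRP5 lie beyond -1, and the frizzled genes are spread on both sides.

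Among the ligands, WNT9A was the most abundant and rose 3.55-fold. Its level was 6.55, 9.81 and 9.35 CPM in control replicates 1 to 3 and 27.2, 32.2 and 31.8 CPM in the rhArg replicates. Every rhArg library was above every control library, and control replicate 1 was the lowest. The log2 fold change was 1.83 (standard error, SE, 0.15, adjusted p = 5.92e-08 by edgeR), and it lay between 1.66 and 1.92 over all alternative settings. The gene (ENSG00000143816) lies on chromosome 1 at 227918656-227947932 on the minus strand, and none of its exon bases is shared with another gene. Per kilobase, WNT9A made up 47.0% ± 4.18 (SD, n = 3) of the summed ligand level in the controls and 73.6% ± 1.03 under rhArg, while the sum itself went from 4.52 ± 0.57 to 10.3 ± 1.07 CPM per kb.

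WNT5A, the best known ligand of the branches that do not use beta-catenin, and its close relative WNT5B moved in opposite directions at low counts. WNT5A passed the count filter only through the controls and WNT5B only through the rhArg libraries. A difference was thus built into their selection, and their adjusted p is not separate support for it. WNT5A had 21, 19 and 13 counts in control replicates 1 to 3 and 4, 3 and 3 in the rhArg replicates. The groups did not overlap, and the log2 fold change was -2.41 (SE 0.43, adjusted p = 0.000169 by edgeR). WNT5B had 3, 1 and 2 counts in control replicates 1 to 3 and exactly 12 counts in each rhArg library. The log2 fold change was 2.47 (SE 0.51, adjusted p = 0.000515 by edgeR), and the ratio of summed counts, scaled for depth, was 5.83 with a 95% counting interval from 2.43 to 16.9. The gene of WNT5A (ENSG00000114251) lies on chromosome 3 at 55465715-55490539 and that of WNT5B (ENSG00000111186) on chromosome 12 at 1529891-1647212. Such intervals cover counting error only.

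WNT2B was also higher, with 2.56, 3.19 and 2.82 CPM in the controls and 5.60, 5.30 and 4.97 CPM under rhArg. The groups did not overlap, and the log2 fold change was 0.89 (SE 0.20, adjusted p = 0.00126 by edgeR). This gene shares 21.5% of its exon bases with its neighbour ST7L, and reads that fall there are counted for neither. The 2 other tested ligands did not pass: WNT10A had a log2 fold change of -0.33 (adjusted p = 0.379 by edgeR) with overlapping groups, and WNT11 had -0.83 (adjusted p = 0.0525 by edgeR, but 0.0408 without rhArg replicate 3).

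Of the 13 ligand genes under the count filter, 5 had no count in any library (WNT2, WNT3, WNT7A, WNT9B and WNT16). WNT4, a ligand of kidney and gonad development, had 2, 0 and 1 counts in control replicates 1 to 3 and 14, 13 and 10 in the rhArg replicates. The ratio of the sums, scaled for depth, was 11.99 with a 95% counting interval from 3.80 to 60.8, and every rhArg library was above the controls. It missed the filter through rhArg replicate 3, and without a filter its adjusted p was 6.06e-06 by edgeR and 0.00315 by DESeq2. WNT3A, a ligand that signals through beta-catenin, had 2, 0 and 2 counts in control replicates 1 to 3 and 3, 11 and 10 in the rhArg replicates. The ratio was 5.83 with an interval from 2.00 to 23.1, its adjusted p without a filter was 0.00483 by edgeR and 0.0563 by DESeq2, and rhArg replicate 1 was close to the controls. WNT6 had 21 counts in the controls and 36 under rhArg, WNT10B had 24 and 14, and the remaining ligands (WNT1, WNT7B, WNT8A and WNT8B) had between 3 and 8 counts over all 6 libraries.

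**Figure D2:**
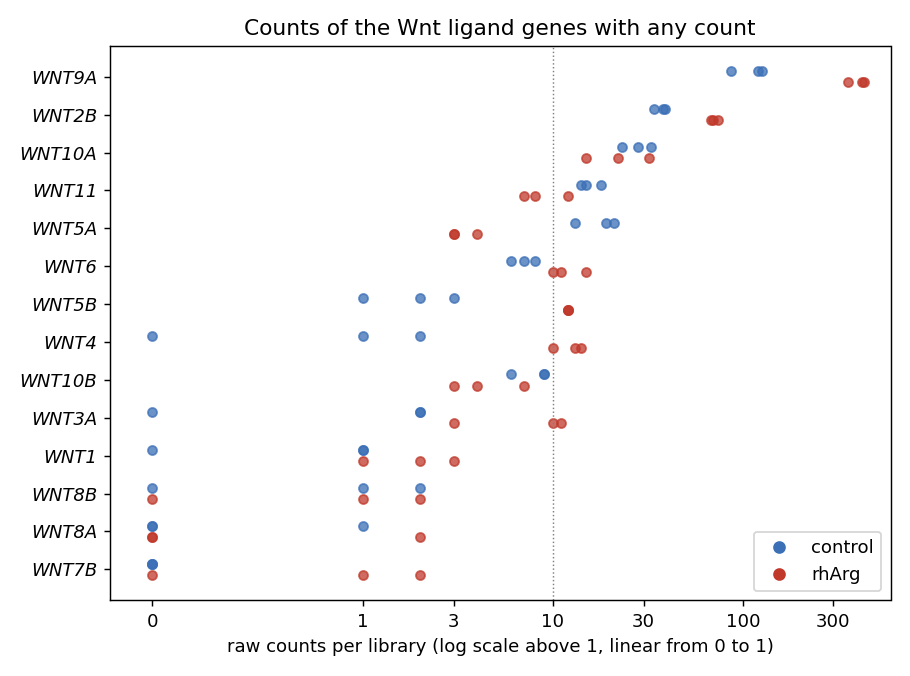
Raw counts in each library of the 14 ligand genes with any count, with control libraries in blue and rhArg libraries in red, on an axis that is logarithmic above 1. The dotted line marks 10 counts, about the level that the filter asks of at least 3 libraries, whichever group they are in. WNT9A, WNT2B, WNT3A, WNT4, WNT5B and WNT6 lie to the right under rhArg and WNT5A and WNT11 to the left, while WNT1, WNT7B, WNT8A, WNT8B and WNT10B stay under 10 counts in every library.

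The secreted inhibitors were dominated by SFRP2, which did not pass the test, while SFRP1 and SFRP5 fell. SFRP proteins carry a domain like that of the frizzled receptors and bind Wnt ligands outside the cell. SFRP5 had 31.7, 28.4 and 30.1 CPM in the controls and 6.81, 7.65 and 7.75 CPM under rhArg. All rhArg libraries were far below the controls, and SFRP5 was 4.06-fold lower (log2 fold change -2.02, SE 0.13, adjusted p = 3.33e-09 by edgeR). SFRP1 had 47.9, 46.2 and 43.4 CPM in the controls and 16.0, 15.1 and 15.7 CPM under rhArg. Its groups did not overlap either, and it was 2.93-fold lower (log2 fold change -1.55, SE 0.11, adjusted p = 6.89e-09 by edgeR). SFRP5 (ENSG00000120057) lies on chromosome 10 at 97766751-97771999 and SFRP1 (ENSG00000104332) on chromosome 8 at 41261962-41309473, and neither shares exon bases with another gene.

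SFRP2 had 367, 576 and 439 CPM in the controls and 447, 465 and 439 CPM under rhArg. The control libraries spanned the whole range of the rhArg libraries, and the log2 fold change was -0.03 (SE 0.13, adjusted p = 0.836 by edgeR), with values between -0.18 and 0.14 when single libraries were left out. Per kilobase, SFRP2 had the highest level of all members in both groups, with 231 ± 53.1 CPM per kb (SD, n = 3) in the controls against 225 ± 6.67 CPM per kb under rhArg. It made up 89.7% ± 2.45 of the summed level of these inhibitors in the controls and 96.9% ± 0.15 under rhArg. SFRP5 went from rank 5 of the members by level per kilobase in the controls to rank 18 under rhArg, and SFRP1 from rank 8 to rank 20. The DKK genes, of which DKK1 is the best known blocker of LRP5 and LRP6, had too few counts to test. DKK1 and DKK2 had no count in any library, DKK3 had 2 counts and DKK4 had 1 count, while SFRP4 had 2 counts. Of the exon bases of DKK3, 47.5% lie also in USP47, where reads are counted for neither gene.

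The frizzled receptors had nearly the same summed level in both groups but a different make-up. Summed per kilobase, they had 45.9 ± 3.28 CPM per kb (SD, n = 3) in the control libraries and 44.2 ± 0.94 CPM per kb under rhArg. FZD5 and FZD6 were higher, FZD4, FZD7 and FZD8 were lower, and FZD1, FZD2 and FZD3 did not pass the test (log2 fold changes of 0.20, -0.07 and -0.20). Without control replicate 2, FZD3 passed as lower (log2 fold change -0.30, adjusted p = 0.011 by edgeR). FZD9 had no count in any library and FZD10 had 8 counts over all 6.

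FZD6, a receptor linked to planar cell polarity, had 12.7, 8.50 and 11.4 CPM in the controls and 18.8, 21.1 and 21.6 CPM under rhArg. The log2 fold change was 0.91 (SE 0.15, adjusted p = 9.24e-05 by edgeR), and the groups did not overlap. FZD5, which has a role in eye development, had 40.9, 49.4 and 47.2 CPM in the controls and 61.6, 68.4 and 58.7 CPM under rhArg, with a log2 fold change of 0.46 (adjusted p = 0.00139 by edgeR). FZD4 had 4.75, 4.09 and 5.34 CPM in the controls and 2.04, 2.57 and 2.49 CPM under rhArg. Its log2 fold change was -0.996 (SE 0.22, adjusted p = 0.000999 by edgeR), just short of the fold limit for DEGs, which it passed in 6 of the alternative settings, and 18.9% of its exon bases are shared with PRSS23. FZD8 had a log2 fold change of -0.72 (SE 0.14, adjusted p = 0.000374) and FZD7 of -0.50 (SE 0.11, adjusted p = 0.00112), both by edgeR. FZD7 was the most abundant frizzled in every library and made up 31.4% ± 2.97 of their summed level in the controls and 23.1% ± 0.71 under rhArg. The share of FZD5 was 14.2% ± 0.42 and 20.2% ± 1.46, and that of FZD6 was 5.89% ± 1.54 and 11.4% ± 1.02.

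**Figure D3:**
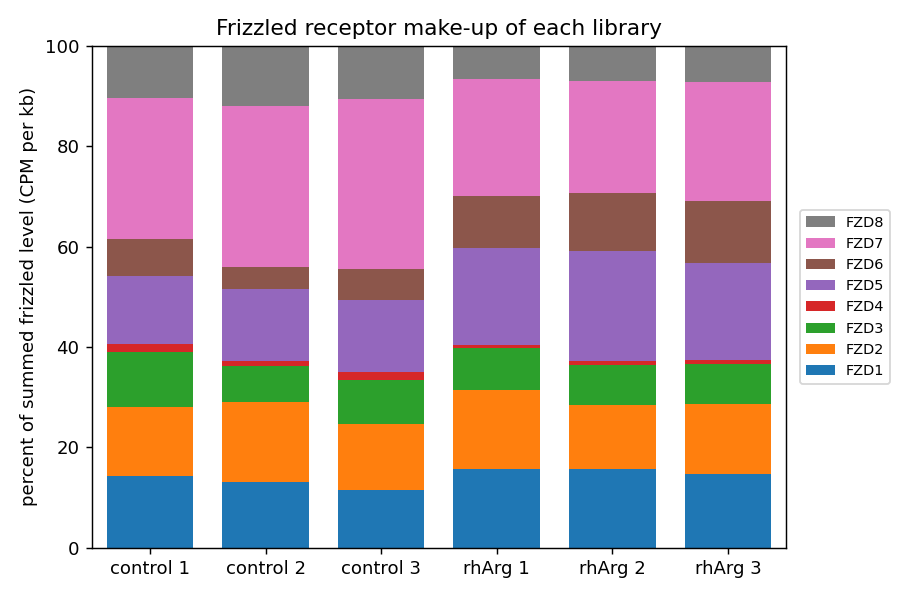
Share of each frizzled gene in the summed frizzled level (CPM per kb) of each library, in percent, with FZD9 and FZD10 left out as they reach less than 1%. FZD7 takes the largest share in all 6 libraries, and the shares of FZD5 and FZD6 are wider in the 3 rhArg libraries.

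The co-receptors moved apart by small amounts. LRP5 had 122, 158 and 126 CPM in the controls and 108, 104 and 100.1 CPM under rhArg, which is -0.38 on the log2 scale (SE 0.11, adjusted p = 0.00507 by edgeR). LRP6 had 57.4, 55.5 and 67.0 CPM in the controls and 74.6, 74.7 and 76.1 CPM under rhArg, which is 0.33 on the log2 scale (SE 0.10, adjusted p = 0.00942 by edgeR). Neither pair of groups overlapped, and control replicate 2 was the highest for LRP5. Per kilobase LRP5 remained above LRP6, at 21.9 ± 3.16 against 5.78 ± 0.59 CPM per kb in the controls and 16.8 ± 0.63 against 7.25 ± 0.08 CPM per kb under rhArg. Of the membrane ubiquitin ligases, ZNRF3 had 43.2, 59.6 and 47.8 CPM in the controls and 34.7, 34.8 and 36.1 CPM under rhArg, at a log2 fold change of -0.51 (SE 0.12, adjusted p = 0.00142 by edgeR). RNF43 had 6 counts over the controls and 2 over the rhArg libraries, but 69% of its exon bases are shared with other genes, where reads are counted for none of them, so its level is uncertain.

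Beta-catenin transcripts were lower and those of the AXIN scaffolds higher. CTNNB1 had 284, 278 and 286 CPM in the controls and 212, 197 and 212 CPM under rhArg. The groups did not overlap and the replicates lay close together, with a log2 fold change of -0.45 (SE 0.09, adjusted p = 0.000286 by edgeR). The gene (ENSG00000168036) lies on chromosome 3 at 41194741-41260096. AXIN1, the constant scaffold of the destruction complex, had 31.5, 40.5 and 31.4 CPM in the controls and 55.4, 58.2 and 61.9 CPM under rhArg, a log2 fold change of 0.76 (SE 0.11, adjusted p = 2.85e-05 by edgeR). AXIN2, which is also a widely used target gene of beta-catenin, had 22.9, 32.2 and 30.2 CPM in the controls and 36.2, 38.1 and 35.7 CPM under rhArg. Its log2 fold change was 0.37 (SE 0.12, adjusted p = 0.0173 by edgeR), and control replicate 1 was the lowest library. Without that library AXIN2 had 0.22 and did not pass (adjusted p = 0.0759 by edgeR), nor did it without rhArg replicate 2 (adjusted p = 0.0616 by edgeR). A stretch of 25.3% of its exon bases lies in an overlapping gene ID that had no count, and reads that fall there are counted for neither. APC had a log2 fold change of 0.21 (SE 0.10, adjusted p = 0.0941 by edgeR) with overlapping groups, although it passed without rhArg replicate 2 (adjusted p = 0.0478 by edgeR).

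The 3 TCF7 family genes rose, and LEF1 had few counts. TCF7L1 had 293, 336 and 335 CPM in the controls and 489, 473 and 537 CPM under rhArg. It was 1.56-fold higher (log2 fold change 0.64, SE 0.09, adjusted p = 2.32e-05 by edgeR). TCF7L2 had 75.5, 90.3 and 85.8 CPM in the controls and 169, 154 and 165 CPM under rhArg. It was 1.94-fold higher (log2 fold change 0.96, SE 0.10, adjusted p = 4.36e-07 by edgeR). TCF7 had 38.3, 51.7 and 48.7 CPM in the controls and 78.9, 90.5 and 85.9 CPM under rhArg, a log2 fold change of 0.88 (SE 0.12, adjusted p = 7.04e-06 by edgeR). For all 3 genes every rhArg library was above every control library. TCF7L1 (ENSG00000152284, chromosome 2 at 85133392-85310387) held the second highest level per kilobase of all members, after SFRP2, with 72.5 ± 5.54 CPM per kb (SD, n = 3) in the control libraries and 113 ± 7.57 CPM per kb under rhArg. TCF7L2 (ENSG00000148737, chromosome 10 at 112950247-113167678) went from 12.4 ± 1.13 to 24.2 ± 1.12 CPM per kb. Within the family, TCF7L1 made up 81.0% ± 0.61 of the summed level in the controls and 77.5% ± 0.91 under rhArg, and TCF7L2 13.9% ± 0.28 and 16.6% ± 0.81. LEF1 had 1, 4 and 2 counts in control replicates 1 to 3 and 0, 1 and 1 in the rhArg replicates, too few to test.

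**Figure D4:**
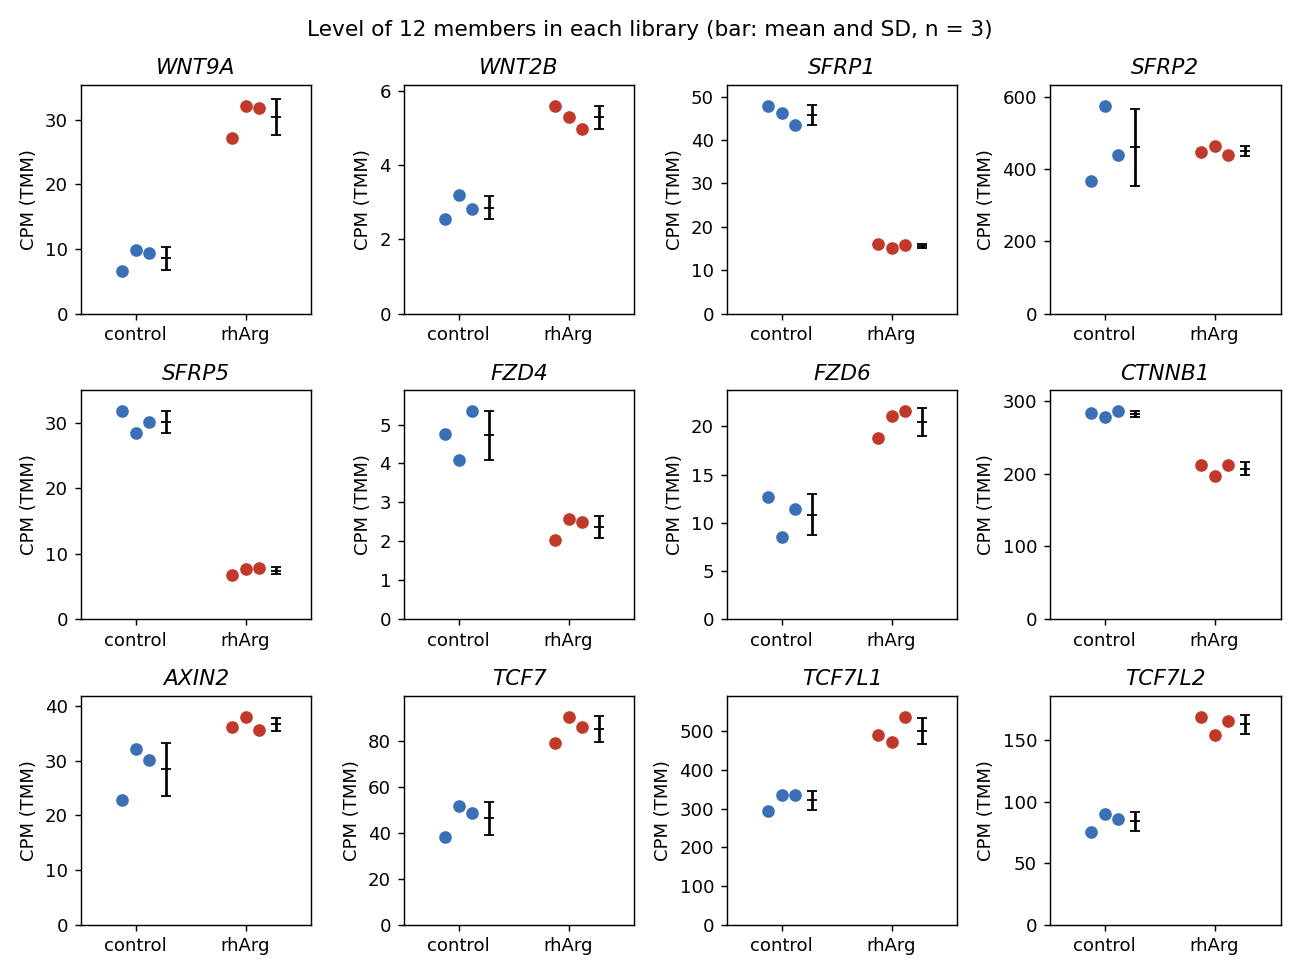
CPM after TMM scaling of 12 members in each library, with 3 control libraries in blue and 3 rhArg libraries in red on axes that start at 0, and the mean with its SD beside them. The groups overlap for SFRP2 and are apart for the other genes shown. Some of these genes were picked after their values were seen, and the share of all genes with groups apart was not computed. Control replicate 1, the leftmost blue point, is the lowest control for WNT9A, WNT2B, SFRP2, AXIN2, TCF7, TCF7L1 and TCF7L2.

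Beyond the members, 121 other pathway genes were arranged in 8 lists by role. Of these, 89 were tested, and 35 were higher (39.3%) and 26 were lower (29.2%), beside the 30.7% and 30.9% of all genes tested. Their median log2 fold change was 0.06. The counts of each list below are to be read beside these shares of all genes, and no list was tested as a set.

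Among proteins that handle the ligand, 1 of 4 tested genes was higher and 1 was lower. PORCN, the enzyme that attaches the lipid to Wnt ligands, had a log2 fold change of -0.59 (adjusted p = 0.000154), whereas WLS, which carries them to the surface, did not pass (-0.23, adjusted p = 0.0560). SULF2, a heparan sulfatase, had 24 counts in the controls and 167 under rhArg and passed the filter only through the latter (log2 fold change 2.74). Of the R-spondins, which protect receptors from ZNRF3 and RNF43, RSPO1 had 23 counts over the controls and 21 over the rhArg libraries and the others had 2 or fewer in all, and both tested LGR receptors were lower, LGR4 with -1.42 (adjusted p = 2.55e-05) and LGR6 with -0.95 (adjusted p = 0.00130), all by edgeR.

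Of the other receptors and co-receptors, 3 of 6 tested genes were higher and 1 was lower. ADGRA2 and RECK, partners in reception of WNT7 ligands, had log2 fold changes of 1.36 and 0.89, the WNT5A receptor gene ROR2 had 0.41, and PTK7, a co-receptor in planar cell polarity, had -0.92. Of the other extracellular antagonists 3 of 5 tested genes were lower and 1 was higher. APCDD1, a membrane inhibitor that is itself a known target of the pathway, had 4169 counts in the controls and 669 under rhArg (log2 fold change -2.68, SE 0.10, adjusted p = 8.94e-12 by edgeR). KREMEN1, a receptor of DKK proteins, had -1.23 and DKKL1 had -1.50, although DKKL1 passed the filter only through the controls, and IGFBP4 had 1.24. WIF1 and SOST had no count.

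The cytoplasmic transducers gave 9 higher (40.9%) and 6 lower (27.3%) among 22 tested genes, beside 30.7% and 30.9% of all genes tested. The brain-type paralog of APC, APC2, rose 4.05-fold (log2 fold change 2.02, SE 0.14, adjusted p = 7.19e-09 by edgeR), and both genes of glycogen synthase kinase 3, which phosphorylates beta-catenin, were higher (GSK3A 0.80, GSK3B 0.73). AMER1 had -0.67, CSNK1G2 -0.69 and CCDC88C -0.53. Of 20 tested nuclear cofactors, 8 were higher (40%) and 5 were lower (25%). The acetyltransferase gene CREBBP had a log2 fold change of 1.35, HBP1, a repressor of the pathway, 1.13 and TBL1X 0.91, while the corepressor genes TLE4 and TLE1 had -0.71 and -0.56 and PYGO1, a coactivator of beta-catenin, -0.56. Of 13 tested planar cell polarity genes, 6 were higher (46.2%) and 2 were lower (15.4%). CELSR3 was at 1.13, ANKRD6 at 1.07 and VANGL2 at 0.72, and INTU was at -0.76 and FUZ at -0.57.

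Genes often used as beta-catenin targets moved in both directions, with 7 higher (41.2%) and 6 lower (35.3%) among 17 tested genes. Over all genes tested the shares were 30.7% and 30.9%. Many of them also answer to other pathways. JUN had a log2 fold change of 4.28, MYC 3.37 and PPARD 0.93, while the cyclin gene CCND1 had -3.55, the survivin gene BIRC5 -1.67 and SOX4 -1.43 (adjusted p of 8.99e-07 or less for each by edgeR). NKD1, a feedback inhibitor of the pathway, had 462 counts in the controls and 411 under rhArg and did not pass (log2 fold change -0.21, adjusted p = 0.221 by edgeR). SP5 and ASCL2 had no count in any library.

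**Figure D5:**
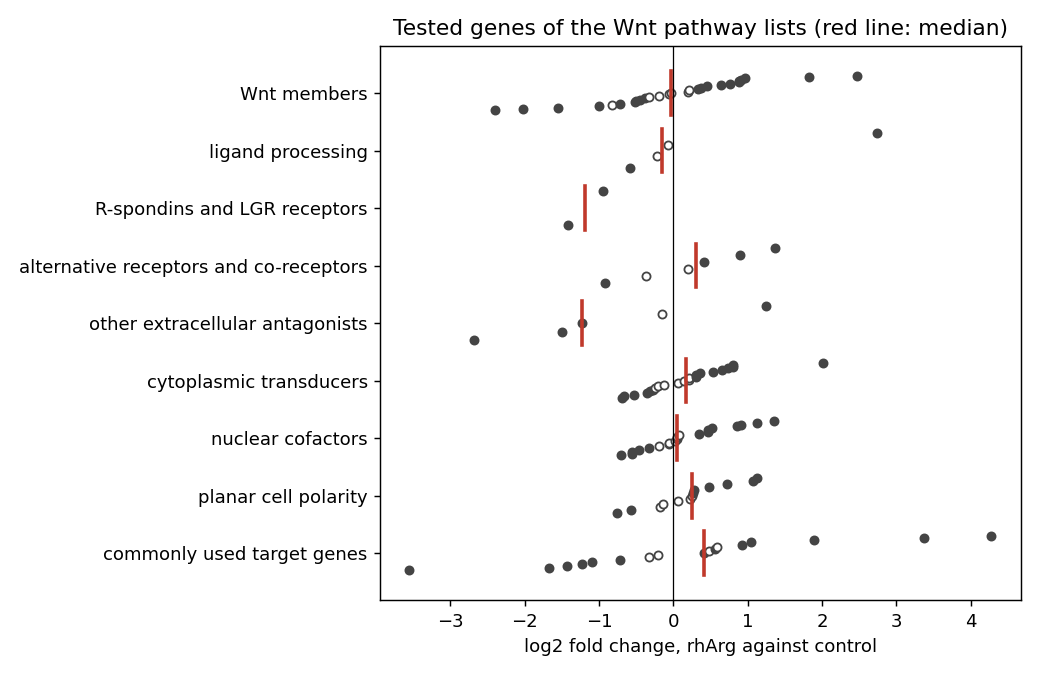
Log2 fold change under rhArg against control of the tested genes among the Wnt members and in 8 lists of other pathway genes, with 1 point per gene. Filled points passed an adjusted p under 0.05 by edgeR, and a red bar marks each list's median. The widest range is that of the target genes, from CCND1 at -3.55 to JUN at 4.28.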

How the data were processed

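RNA of Y79 cells was sequenced in 3 control and 3 rhArg libraries. Reads were cleaned (SOAPnuke) and mapped to hg38 (HISAT2) by the authors, with versions not given in the sources used here, and the deposited values are raw counts per gene from featureCounts 2.0.1 in paired-end mode without a strand option on the Ensembl 112 annotation of GRCh38. Reads that overlap several genes were therefore left uncounted, and the share of exon bases in another gene was computed for each member. Symbols were found for 62541 of 63140 gene IDs, and 0 value columns were left unused. All genes were fitted with edgeR 4.0.16 in R 4.3.3 (filterByExpr, TMM, glmQLFTest, condition only), with Benjamini-Hochberg adjustment over 15221 genes. TMM factors lay between 0.975 and 1.02. In simulated counts with 200 changed genes, edgeR found 29.2% of those with a log2 change of 0.5, 91.8% of those with 1, and called 0.0339% of 14748 unchanged genes. In the real data 4678 genes were called higher and 4710 lower, and the controls spread more than the rhArg libraries. The simulation gave both groups the same dispersion, so its rates do not carry over to the calls reported here. Members with values in every library are the DEGs and CTNNB1, AXIN2, LEF1, TCF7L1, TCF7L2, LRP5 and LRP6; the values shown for other members were added after they were seen. From each list, up to 3 higher and 3 lower genes with the smallest adjusted p are named, and WLS, RSPO1, NKD1, WIF1, SOST, SP5 and ASCL2 were added after their values were seen. The members and lists were chosen with earlier results of these data known. The intervals are exact binomial ones at 95%. The result of 1 marker list is not reported here.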

Additional observations from a re-analysis of the deposited data

How the results depend on the processing

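The calls were repeated with DESeq2 1.42.0 on every gene that had a count, with 3 other scalings (RLE, upper-quartile, library totals), without the filter, with a stricter filter asking for 1 CPM throughout a group and a mean of 20 counts, without each library, with a replicate block, and, for DEGs, with glmTreat. Under these settings 76 counts of calls stayed within 1.5 times the value reported and 4 did not. With DESeq2, the tool the paper used, 3 members were higher DEGs (WNT4 in addition) and 4 were lower DEGs (FZD4 in addition). Higher DEGs numbered 4 without a filter, where WNT3A and WNT4 entered, and 1 under the stricter filter, which drops WNT5B. Lower DEGs numbered 4 without a filter, where FZD4 entered, and 2 under the stricter filter, which drops WNT5A. Leaving out single libraries gave between 2 and 4 higher DEGs, with 4 without control replicate 1 (FZD6 and WNT4 in addition), and between 3 and 5 lower DEGs, with 5 without rhArg replicate 3 (FZD4 and WNT11 in addition). With the replicate block, 11 members were higher and 9 lower, as reported, and 2 and 3 were DEGs. Same-numbered libraries did not deviate together (correlations of -0.0785, 0.0589 and 0.00403), so the numbers were not taken as pairs. Of 141 values of the named members under the alternatives, 139 kept direction and side of the threshold, 2 lost the call (both AXIN2) and 0 changed sign. WNT5A and WNT5B have no value under the stricter filter, so their loss there is not part of this tally. At this depth the ligands with few counts, LEF1 and the DKK genes could not be tested, and a count of 0 in a library is not evidence of absence.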

Other observations

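Several WNT genes lie in neighbouring pairs of the genome, and their counts are set side by side here without a test. WNT9A and WNT3A lie 59.1 kb apart on chromosome 1 in divergent orientation with 0 coding genes between them. WNT9A had 333 counts in the controls and 1220 under rhArg, and WNT3A had 4 and 24. WNT6 and WNT10A, 6.62 kb apart on chromosome 2, had 21 and 36 counts and 84 and 69 counts, in that order. WNT10B and WNT1, 6.59 kb apart on chromosome 12, had 24 and 14 counts and 2 and 6 counts. For the pair on chromosome 1 both genes had more counts under rhArg, while in the pairs on chromosomes 2 and 12 one gene had more and the other fewer. WNT3 and WNT9B, neighbours on chromosome 17, had 0 counts in every library.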
